A study of Homo sapiens with 6 samples.

Results

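The RNA levels of 43 genes of DNA replication and mitosis, 19 that act at the start of and during S phase and 24 that act in mitosis, were followed in glioblastoma cells after knock-down of the long non-coding RNA HOTAIRM1. The genes were chosen by symbol, from textbook roles in the cell cycle and with earlier results of these data known. The choice was made among the 59074 genes of the deposited table. All 43 were found there, and all 43 passed the filter on low values (mean over the 6 libraries of 1 CPM, reads scaled by library depth, or more), which 14294 genes passed. RNA came from 3 established glioblastoma cell lines, LN-229 (LNT229 in the sample titles), T98G and U251, taken 72 h after transfection. In each line 1 library held cells with a non-target siPOOL (a complex pool of siRNAs; siControl) and 1 held cells with a siPOOL against HOTAIRM1 (siHOTAIRM1), so the 3 cell lines were the replicates and no line had a replicate of its own. The knock-down was transient, and the control cells were transfected too. A p-value over the 3 lines sets the mean change against a spread between lines. In the limma fits below, the spread of a gene was drawn toward that of genes of like level. Fewer dividing cells and less RNA of these genes per cell cannot be told apart in RNA of whole cultures.

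A dividing cell loads the MCM2 to MCM7 helicase onto replication origins, fires the origins in S phase under E2F transcription factors and cyclin E, and copies its DNA with PCNA as the sliding clamp. Later the cyclin B kinase CDK1 starts mitosis, the Aurora and Polo kinases build the spindle, and the anaphase-promoting complex with CDC20 ends it by having securin (PTTG1) and cyclin B degraded. S-phase genes are known for E2F sites in their promoters and mitotic genes for the CHR element, bound by the MuvB complexes with B-MYB (MYBL2) and FOXM1, often near CCAAT boxes, which NF-Y binds.

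The depth, taken from the worth of 1 read in each library, was 52.3 to 104 M reads, and the smallest level of any member rested on 156 reads (CDT1 in U251 siControl). The listed genes summed to 42.9 to 67.2% of the full CPM scale, and protein-coding genes to 32.3 to 45.4%. Between the libraries of a line this protein-coding share differed most in T98G, with 38.7% in siControl and 32.3% in siHOTAIRM1. U251 siControl stood apart by the lowest depth and by 9.83% of the full CPM scale on the signal recognition particle RNAs (RN7SL), against 2.39 to 5.51% in the other 5 libraries. HOTAIRM1 was at 1.99 CPM in siControl and 0.952 in siHOTAIRM1 in LN-229, at 3.49 and 2.15 in T98G, and at 1.27 and 0.623 in U251, lower after knock-down in each line. VIM, an intermediate filament of glioma cells, was at 253.7 to 1794 CPM, while PTPRC (leukocytes), PECAM1 and VWF (endothelium) and RBFOX3 (neurons) were at 0.523 CPM or less in every library. GFAP was above 1 CPM in U251 alone among these lines, NES was at 0.956 CPM or less in T98G, and S100B was listed at 0.0001 there. CD68 (macrophages) and SNAP25 (neurons) reached 7.80 and 8.46 CPM.

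The promoters of the members were searched for these motifs. A RefSeq promoter (GRCh38.p14, 250 bases before to 50 bases after the start site) was found for 35 members, 16 of S phase and 19 mitotic, and 8 (UBE2C, MCM4, FOXM1, BIRC5, CCNE2, TPX2, MCM5 and AURKA) had none in the table used. The core of the CHR element, TTTGAA on either strand, was in 12 of 19 mitotic windows (63.2%) and in 1 of 16 S-phase windows (6.25%, RRM1), against 18.2% of all 27305 genes with a window. An E2F site, written as TTTGGCGC, TTTCCCGC, TTTCGCGC or TTTGCCGC on either strand, was in 10 of 16 S-phase windows (62.5%) and in 3 of 19 mitotic windows (15.8%, CDK1, CENPA and NUSAP1), against 3.99% of all genes. CCAAT on either strand was in 62.5% of the S-phase and 89.5% of the mitotic windows, against 39.7% of all. Sites of different motifs shared bases in MCM7 (CCAAT and E2F) and MKI67 (CCAAT and CHR). A gene with more windows counted as matched if any of them held the motif. A match is a description of these letters and not a bound site.

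The following stretches show the CHR core, in capitals, on the strand of the gene. They lie at chr16:23678849-23678876 on the plus strand (PLK1), chr10:128126436-128126463 on the minus strand (MKI67), chr15:59105106-59105133 on the plus strand (CCNB2), chr1:43358905-43358932 on the plus strand (CDC20) and chr10:60778159-60778186 on the plus strand (CDK1). In PLK1, MKI67 and CCNB2 the core starts at the same distance, 29 bases before the RefSeq start site. The CDK1 core shown starts at -161 from the start site of its first listed window. A further CDK1 window held cores nearer to its own start site, at -69, at -13 and, on the opposite strand, at 9.
PLK1: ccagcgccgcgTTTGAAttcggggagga
MKI67: cttcgttttcgTTTGAAttgggcgggcg
CCNB2: gcgacgcggtaTTTGAAtcctggaacaa
CDC20: gacggttggatTTTGAAggagccaatag
CDK1: agtataataaaTTTGAActgtgccaatg

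The E2F sites of S-phase genes, again in capitals and on the strand of the gene, are shown for the factor itself, for the helicase loader CDC6, for helicase subunits and for the clamp. They lie at chr20:33686388-33686415 on the minus strand (E2F1), chr17:40287876-40287903 on the plus strand (CDC6), chr3:127598403-127598430 on the plus strand (MCM2), chr2:135876516-135876543 on the minus strand (MCM6), chr7:100101389-100101416 on the minus strand (MCM7) and chr20:5126664-5126691 on the minus strand (PCNA, where the site reads TTTCCCGC on the opposite strand).
E2F1: gcaaaaaggaTTTGGCGCgtaaaagtgg
CDC6: gccattcggaTTTGGCGCgagcgcggct
MCM2: gtgaaccactTTTCGCGCgaaacctggt
MCM6: attggtcaggTTTGGCGCgaaatctcca
MCM7: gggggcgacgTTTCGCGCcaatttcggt
PCNA: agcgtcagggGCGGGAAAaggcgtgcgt

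**Figure D1:**
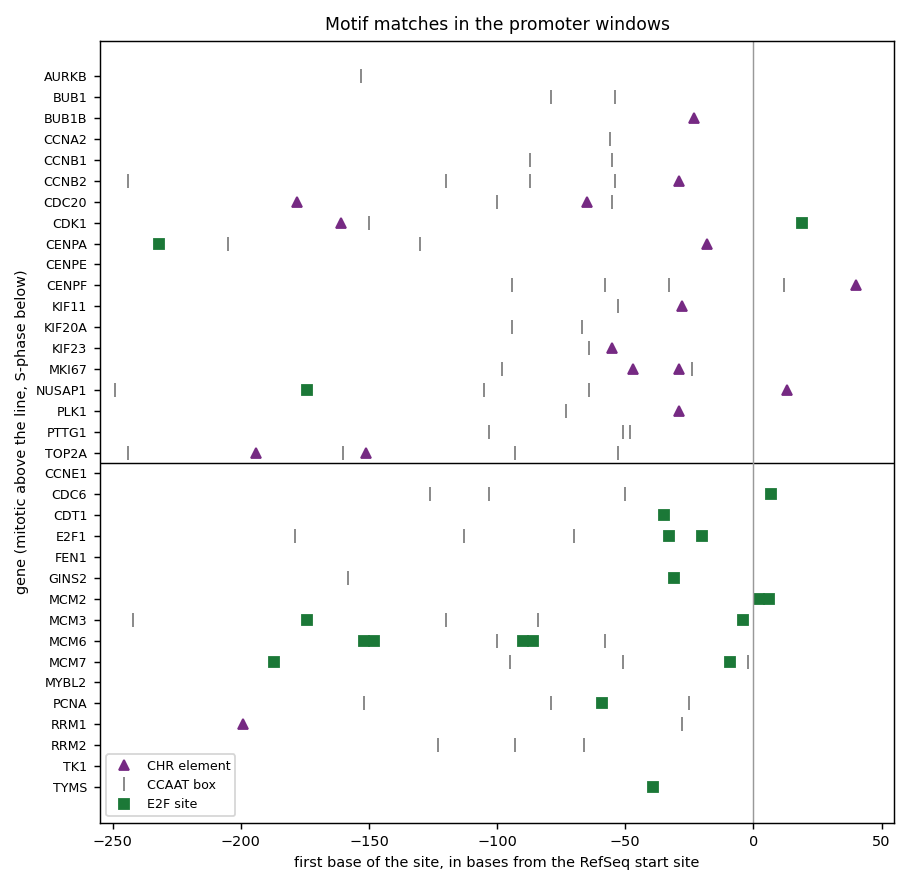
Position of each motif match in the first listed promoter window of each of 35 members, in bases from the RefSeq start site (x axis), with 1 row per gene, mitotic genes above the line and S-phase genes below it. Matches in further windows of a gene are not drawn, such as the CCAAT boxes of TK1. Triangles are CHR cores, squares E2F sites and ticks CCAAT boxes on either strand, and most triangles lie in mitotic rows (12 genes) while most squares lie in S-phase rows (10 genes).

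Levels were compared first between genes, per kb of the canonical transcript, and then between cell lines. Per kb, the median S-phase gene was at 13.3 to 21.0 CPM and the median mitotic gene at 20.4 to 26.8 CPM over the 6 libraries. In each library the mitotic median was the higher. CDT1, which loads the helicase in G1 and is then destroyed, was the lowest S-phase gene in every library, at 2.42 CPM per kb or less. The highest S-phase gene was MCM7 in LN-229 (97.99 CPM per kb in siControl and 96.4 in siHOTAIRM1) and PCNA in T98G and U251 (67.7 to 99.2). The highest mitotic gene was UBE2C in LN-229, the ubiquitin-conjugating enzyme of the anaphase-promoting complex, and PTTG1 in the other lines.

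The 6 helicase subunits, which assemble in equal numbers, were not at equal RNA levels. MCM7 was the highest of them in all 6 libraries, and the highest subunit exceeded the lowest (MCM6 in LN-229 and T98G, MCM5 in U251) by 5.25 to 7.16 times per kb. MCM7 was at 241.7 and 237.9 CPM in LN-229 (siControl and siHOTAIRM1), 128.0 and 94.1 in T98G, and 136.8 and 120.2 in U251. MCM6 was at 65.8 and 68.9 CPM in LN-229, 27.2 and 25.7 in T98G, and 40.7 and 38.1 in U251. For both genes the 2 LN-229 libraries lay above the other 4.

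**Figure D2:**
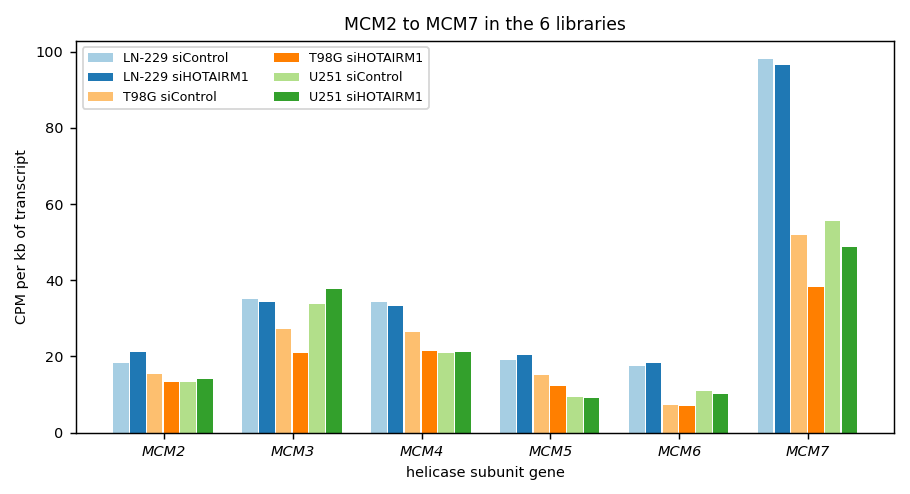
Level of MCM2 to MCM7 in CPM per kb of canonical transcript (y axis), with 1 bar per library, siControl in the lighter and siHOTAIRM1 in the darker shade of each cell line. MCM7 stands above the other subunits in every library (38.1 CPM per kb or more), and its LN-229 bars are the tallest.

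Between cell lines, the members were on balance lower in T98G and U251 than in LN-229. In T98G, 18 members were lower and 1 higher than in LN-229 (limma with Benjamini-Hochberg adjustment over all genes tested, condition as covariate, adjusted p under 0.05), where 54.9% of all genes differed, 30.8% lower and 24.1% higher. In U251, 15 were lower and 5 higher than in LN-229, where 60.6% of all genes differed, 23.9% lower and 36.7% higher. The median difference of S-phase genes was -0.41 on the log2 scale in T98G and -0.44 in U251, and that of mitotic genes was -0.34 and -0.15, beside -0.08 and 0.15 for all genes. Between U251 and T98G, where 64.2% of all genes differed (41.0% higher and 23.1% lower), 15 members were higher in U251 and 4 lower, but with each library rescaled to its protein-coding sum 7 were higher and 18 lower, so the direction of this comparison depends on the scaling. Under that rescaling the T98G and U251 counts against LN-229 were 20 lower with 4 higher and 26 lower with 5 higher. The shares of all genes under the rescaling are not given here, so the rescaled counts have no background beside them. Each line had 2 libraries here, 1 per condition.

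MYBL2 (B-MYB) had the widest range of all members, 3.47 times between its highest and lowest library. It was at 64.8 and 72.0 CPM in LN-229, 20.8 and 21.2 in T98G, and 27.5 and 33.9 in U251, so that LN-229 did not overlap with the other lines. Its log2 difference from LN-229 was -1.66 in T98G (SE 0.173, adjusted p 2.624e-10 by limma) and -1.14 in U251 (SE 0.173, adjusted p 7.466e-07). MCM6 (-1.32 and -0.76) and MCM7 (-1.12 and -0.90) were lower in both lines too, as were UBE2C (-1.01 and -0.96) and the spindle checkpoint kinase BUB1B (-0.81 and -0.61). These 5 genes were past the threshold in both comparisons under all 5 other settings tried. FEN1, the flap nuclease of Okazaki fragments, was lower in T98G (-0.87), as was CENPA, the histone of the centromere (-0.72). Each overlaps a gene on the same strand, FADS2 for FEN1 and SLC35F6 for CENPA. The CPM of these reached 588% and 876% of that of the member, so both differences are uncertain.

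Against this direction, TYMS, the enzyme that makes thymidylate, was at 21.4 and 23.6 CPM in LN-229, 27.8 and 25.4 in T98G, and 55.8 and 47.4 in U251. U251 was above the other lines, with a log2 difference of 1.16 from LN-229 (SE 0.174, adjusted p 5.929e-07 by limma) and 0.92 from T98G. TYMS overlaps ENOSF1 on the opposite strand, which was at 13.4 and 14.5 CPM in LN-229 and at 0.364 and 0.247 in U251. CDK1 was at 53.2 and 50.2 CPM in LN-229, 58.5 and 51.5 in T98G, and 115.1 and 73.7 in U251, with a difference of 0.82 between U251 and LN-229. CCNE2, cyclin E2, was higher in U251 than in LN-229 by 0.71. However, CCNE2 shares exons on the opposite strand with INTS8, whose own CPM reached 302% of that of CCNE2. The use of strand in the counting was not stated, so reads of overlapping exons may have been counted for either gene. PTTG1 was higher in T98G than in LN-229 by 0.70 (SE 0.184, adjusted p 1.586e-03 by limma) and in U251 by 0.68 (SE 0.184, adjusted p 1.711e-03), calls that were kept under 4 and 3 of the 5 other settings.

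Partner genes were compared as ratios per kb within each library. RRM2, the small subunit of ribonucleotide reductase, stood to the large subunit RRM1 at 0.488 to 0.685 in LN-229 and T98G and at 0.944 and 1.19 in U251. CDT1 stood to its inhibitor geminin (GMNN) at 0.174 to 0.195 in LN-229 and T98G and at 0.0387 and 0.0658 in U251. MYBL2 was above FOXM1 per kb in LN-229 (ratio 1.39 in siHOTAIRM1) and below it in T98G (0.360 and 0.445) and U251 (0.795 and 0.858). These ratios are descriptions without a test, and ratios within a library do not depend on its scaling.

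**Figure D3:**
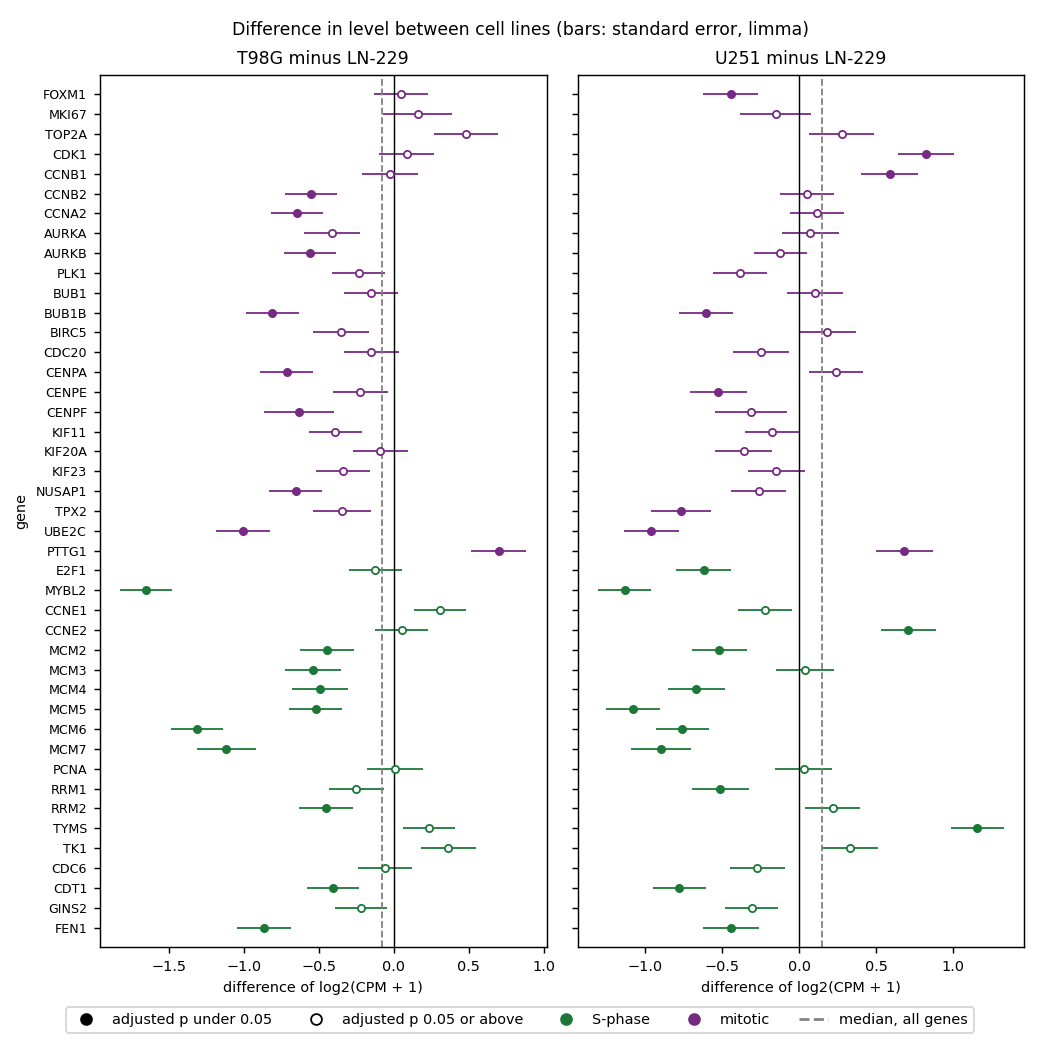
Difference in level of each member between T98G and LN-229 (left) and between U251 and LN-229 (right), as the difference of log2(CPM + 1) with its standard error from limma. Filled points had an adjusted p under 0.05, the dashed line is the median of all genes tested, and 18 and 15 filled points lie below 0.

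The study asked what loss of HOTAIRM1 does to glioma cells, and here the members' levels before and after knock-down were compared within each line. A change below is the siHOTAIRM1 value of log2(CPM + 1) less the siControl value of the same line, given in the order LN-229, T98G, U251. The S-phase medians were 0.07, -0.29 and -0.07, and the mitotic medians were 0.00, -0.30 and -0.14. The median of all genes tested was 0.01, -0.19 and -0.03, so relative to it the S-phase medians were 0.06, -0.10 and -0.05 and the mitotic medians -0.01, -0.11 and -0.11. In T98G 40 of 43 members were lower after knock-down, but 79.3% of all genes were too. In LN-229 20 (all genes 46.3%) and in U251 27 (53.2%) were lower. With each library rescaled to its protein-coding sum, the S-phase medians were 0.06, -0.03 and 0.03 and the mitotic medians -0.01, -0.05 and -0.04, and with rescaling to the listed genes they were 0.03, -0.06 and 0.19 and -0.04, -0.08 and 0.12. The sign of the U251 S-phase median thus turned under both, and that of the U251 mitotic median under the second.

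The S-phase median exceeded the mitotic one by 0.07, 0.02 and 0.07, with a mean of 0.051 ± 0.031 (SD, n = 3 lines). Without the regulators (E2F1, MYBL2, CCNE1, CCNE2, FOXM1) and CCNA2, which acts in both phases, the difference was 0.013 ± 0.046, with a value below 0 in LN-229 and T98G. The summed S-phase level changed by 0.877%, -20.5% and -6.87%, and the summed mitotic level by 0.888%, -16.7% and -3.25%. Genes are not replicates, so no test was made of this difference. Of the 19 mitotic genes with a promoter window, those with the core TTTGAA had medians of 0.01, -0.28 and -0.14 (12 genes). Those without it, PTTG1 among them, had medians of -0.05, -0.48 and -0.29 (7 genes). Other forms of the CHR element were not searched, and the difference between these groups was not tested.

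**Figure D4:**
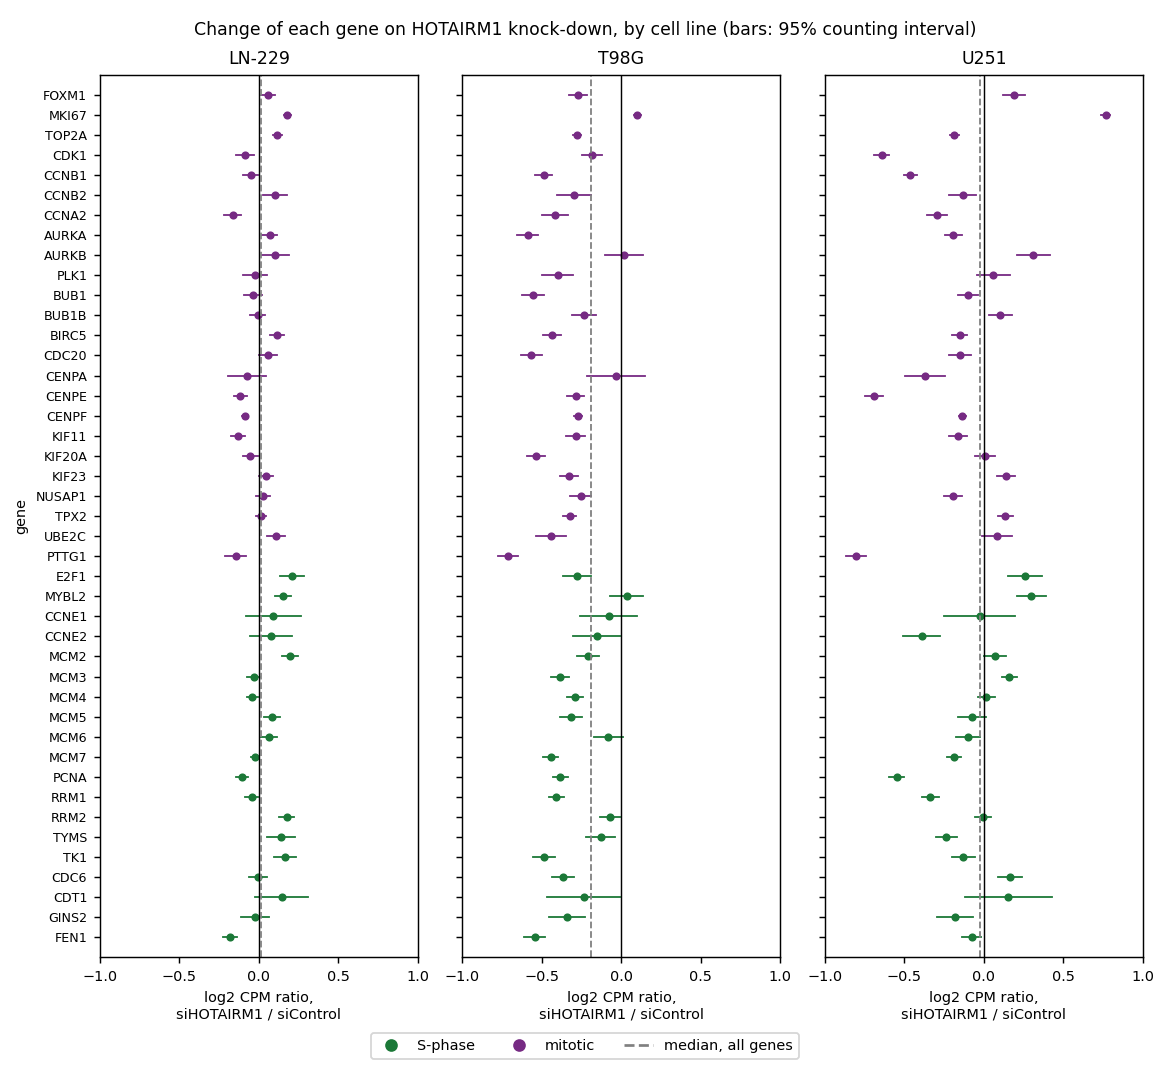
Change of each of the 43 members on knock-down in the 3 cell lines, as the log2 ratio of CPM with its 95% counting interval, which leaves out the spread between libraries. The dashed line is the median of log2(CPM + 1) changes of all genes tested, and in T98G 40 of 43 points lie left of 0.

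By the test over the 3 lines, 1 of 43 members was past the threshold, PTTG1, which was lower (limma with Benjamini-Hochberg adjustment and the cell line as block), where 2.0% of all genes were called and 1.59% were called lower. With an unadjusted p under 0.05 there were 4 members, all lower (PTTG1, CENPE, PCNA and CCNB1), where 18.3% of all genes were and 14.2% were lower. The fitted change was below 0 for 36 of 43 members (83.7%), against 63.8% of all genes, and for 22 (51.2%), against 45.3% of all genes, after rescaling to the protein-coding sum. The change was below 0 in all 3 lines for 14 members (MCM7, PCNA, RRM1, GINS2, FEN1, CDK1, CCNB1, CCNA2, BUB1, CENPA, CENPE, CENPF, KIF11 and PTTG1), where 28.1% of all genes were, and above 0 in all 3 for MYBL2, MKI67 and AURKB, where 11.4% were. After rescaling to the protein-coding sum 10 members were lower in all 3 lines (all genes 19.5%; of the 14, not CDK1, BUB1, CENPA and FEN1) and 8 higher (all genes 25.9%), with CCNE1, CDT1, MCM2, MCM6 and RRM2 beside the 3 above.

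PTTG1 (chr5:160421855-160428739 on the plus strand of hg38, GENCODE v44) encodes securin, which holds separase inactive until anaphase. It was at 37.2 and 33.6 CPM in LN-229, 74.4 and 45.3 in T98G, and 75.8 and 43.4 in U251 (siControl and siHOTAIRM1). The level changed by -9.62%, -39.0% and -42.8%, lower in each line, and the knock-down levels in T98G and U251 still lay above both LN-229 libraries. The fitted change was -0.54 (SE 0.150, adjusted p 0.0472 by limma). The SD of the PTTG1 change over the 3 lines was 0.352, and the SE draws on the spread of other genes too. The call was lost under 8 of the 10 alternatives. Without the block it had an adjusted p of 1 by limma, and with each library centred on its median the change was -0.47 (adjusted p 0.163 by limma), with the rescaling to protein-coding genes -0.43 (0.204), without T98G -0.47 (0.581) and without U251 -0.42 (0.549). Its near-identical copies PTTG2 and PTTG3P reached at most 2.66% and 4.81% of its level. The promoter window of PTTG1 held CCAAT boxes and neither a CHR core nor an E2F site.

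The cyclin-kinase pair that starts mitosis was lower in each line without passing the test, CDK1 not in each line after rescaling to the protein-coding sum. CCNB1 (cyclin B1) was at 79.3 and 76.5 CPM in LN-229, 90.5 and 64.5 in T98G, and 137.9 and 100.1 in U251. Its fitted change was -0.33 (SE 0.152, unadjusted p 0.0364 in limma's fit across all genes). CDK1, whose levels are given above, changed by -0.08, -0.18 and -0.64. CCNA2 (cyclin A2) changed by -0.16, -0.41 and -0.29, and CCNB2 (cyclin B2) by 0.10, -0.28 and -0.13. CCNA2 overlaps EXOSC9 on the opposite strand, which reached 59.6% of its level.

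**Figure D5:**
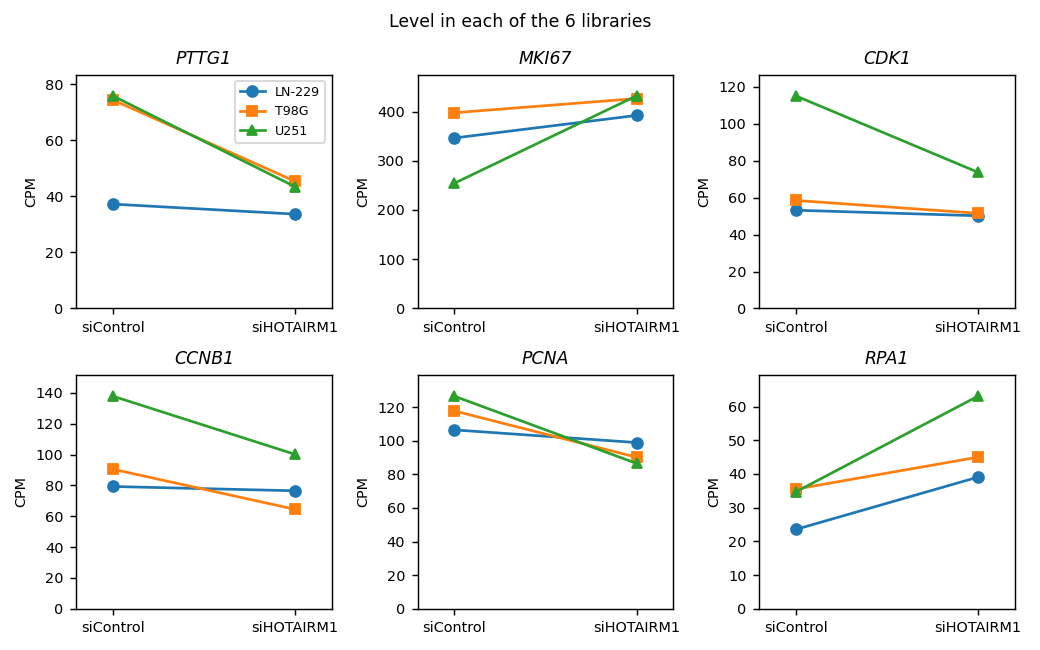
CPM of 5 members and of RPA1 in the 6 libraries, each line joining siControl and siHOTAIRM1 of a cell line. PTTG1, CDK1, CCNB1 and PCNA end lower in all 3 lines, while MKI67 and RPA1 end higher in all 3.

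MKI67 and TOP2A are both used as markers of dividing cells. MKI67, which coats mitotic chromosomes, was at 346.2 and 392.1 CPM in LN-229, 397.5 and 426.3 in T98G, and 254.1 and 431.9 in U251. TOP2A, the topoisomerase that untangles sister DNA, was at 221.3 and 240.0 CPM in LN-229, 355.1 and 292.9 in T98G, and 297.7 and 261.5 in U251. MKI67 was higher after knock-down in all 3 lines, by 70.0% in U251, with a fitted change of 0.35 (SE 0.188, adjusted p 0.324 by limma), while TOP2A changed by 0.12, -0.28 and -0.19. Their ratio per kb, MKI67 to TOP2A, was 0.701 and 0.732 in LN-229, 0.501 and 0.652 in T98G, and 0.382 and 0.740 in U251. It was higher in siHOTAIRM1 in each line, and U251 siControl, the library that stood apart, had the lowest ratio.

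MKI67 has the longest canonical transcript of the 43 members (12716 bases) and PTTG1 the shortest (715 bases). Over the members, the change went up with length in U251 (Spearman's rho 0.294, n = 43 genes) and in T98G (0.193) and not in LN-229 (-0.03), and over the 12336 genes with a length rho was 0.310, 0.237 and -0.03 in the same order of lines. Without MKI67 and PTTG1 rho over the other 41 was 0.185 in U251, 0.0686 in T98G and -0.174 in LN-229. The genes of a library share its depth and RNA, so these are descriptions. CENPE and CENPF, the next longest (8541 and 10290 bases), were lower in all lines. The part of length in the changes of MKI67 and PTTG1 was not tested.

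At the centromere, CENPE, the kinesin of the outer kinetochore, was at 101.2 and 93.4 CPM in LN-229, 91.8 and 75.2 in T98G, and 85.4 and 52.9 in U251. Its fitted change was -0.36 (SE 0.152, unadjusted p 0.0240 in limma's fit across all genes). CENPF, a kinetochore protein, changed by -0.09, -0.27 and -0.14, and CENPA by -0.07, -0.03 and -0.35. All 3 centromere genes were lower in each line, CENPA not after rescaling to the protein-coding sum. CENPA overlaps SLC35F6 on the same strand, whose own CPM reached 876% of that of CENPA, so the value of CENPA is uncertain.

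The mitotic kinases and their partners went different ways in different lines. AURKB, the Aurora kinase of the chromosomal passenger complex, changed by 0.10, 0.02 and 0.30 in LN-229, T98G and U251, and its partner BIRC5 (survivin) by 0.11, -0.43 and -0.15. AURKA, the Aurora kinase of the spindle poles, changed by 0.07, -0.58 and -0.19, and its activator TPX2 by 0.01, -0.32 and 0.13. AURKB was below AURKA per kb in all 6 libraries, and their ratio was higher in siHOTAIRM1 than in siControl in each line. PLK1 (Polo-like kinase) changed by -0.02, -0.38 and 0.06, BUB1 by -0.03, -0.54 and -0.10, and BUB1B by -0.01, -0.23 and 0.10. None of these 7 genes passed the test.

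Among genes of anaphase and the spindle, CDC20, the activator of the anaphase-promoting complex, changed by 0.06, -0.56 and -0.15, and UBE2C by 0.11, -0.43 and 0.08. A processed copy, CDC20P1, reached 22.1% of the CDC20 level, so reads between them may be split. The kinesins KIF11 (bipolar spindle), KIF20A and KIF23 (cytokinesis) were lower in T98G by 0.28 to 0.53 on the log2 scale, and KIF11 was the one lower in all 3 lines. KIF20A overlaps BRD8 and CDC23 on the opposite strand, whose own CPM reached 80.5% and 63.9% of that of KIF20A. NUSAP1, a microtubule binder of the spindle, changed by 0.03, -0.25 and -0.19. It shares exons on the same strand with OIP5-AS1, whose own CPM reached 134% of that of NUSAP1, so the value of NUSAP1 is uncertain. FOXM1, the transcription factor of mitotic genes, changed by 0.05, -0.27 and 0.19.

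Among S-phase regulators, E2F1 was at 29.7 and 34.4 CPM in LN-229, 32.2 and 26.6 in T98G, and 18.7 and 22.3 in U251, thus higher after knock-down in LN-229 and U251 and lower in T98G. MYBL2 changed by 0.15, 0.03 and 0.29. The cyclins E, CCNE1 and CCNE2, changed by 0.08 and 0.07 in LN-229, -0.07 and -0.14 in T98G, and -0.02 and -0.37 in U251. None of the 4 passed the test.

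The licensing genes (MCM2 to MCM7, CDC6, CDT1 and GINS2) had median changes of 0.00, -0.31 and 0.01. All 9 were lower in T98G, 8 of them below the median of all genes there, while 4 were lower in U251 and 5 in LN-229. MCM3 changed by -0.03, -0.38 and 0.16, and CDC6, which recruits the helicase, by 0.00, -0.36 and 0.16. MCM2 changed by 0.20, -0.21 and 0.07, MCM4 by -0.04, -0.29 and 0.01, MCM5 by 0.08, -0.31 and -0.07, and MCM6 by 0.07, -0.08 and -0.10. MCM7 (-0.02, -0.44 and -0.19) and GINS2, a part of the active helicase (-0.02, -0.32 and -0.17), were the 2 of these genes that were lower in all 3 lines. GINS2 overlaps GSE1 on the opposite strand, whose own CPM reached 143% of that of GINS2.

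At the fork, PCNA was at 106.4 and 98.9 CPM in LN-229, 117.7 and 90.1 in T98G, and 126.5 and 86.4 in U251. The siControl libraries (106.4 and above) lay above the siHOTAIRM1 libraries (98.9 and below) across all lines, as for 1.89% of all genes. PCNA was the 1 member that separated in this way. It also did after rescaling to the protein-coding sum and not after rescaling to the listed genes. The fitted change was -0.34 (SE 0.154, unadjusted p 0.0318 in limma's fit across all genes). FEN1 changed by -0.18, -0.53 and -0.08. It shares exons on the same strand with FADS2, whose own CPM reached 588% of that of FEN1, so the value of FEN1 is uncertain. The nucleotide enzymes RRM1 (-0.05, -0.40 and -0.33), RRM2 (0.17, -0.07 and 0.00), TYMS (0.13, -0.13 and -0.23) and TK1 (0.16, -0.48 and -0.13) were all lower in T98G, 2 of them (RRM1 and TK1) below the median of all genes there, and RRM1 was also lower in LN-229 and U251.

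Further genes of the same machinery were read from lists by symbol. Of 42 more origin and fork genes, 1 was called, RPA1, the large subunit of the single-strand binding protein, which rose, where 0.413% of all genes were called higher. RPA1 was at 23.5 and 39.1 CPM in LN-229, 35.5 and 45.0 in T98G, and 34.7 and 63.1 in U251, higher after knock-down in each line. Its fitted change was 0.63 (SE 0.145, adjusted p 0.0160 by limma), and 0.74 (adjusted p 0.0769) after rescaling to the protein-coding sum. Over the 10 alternatives its adjusted p went from 0.00234 to 1 (limma or the paired statistic), and with each line left out in turn it was 0.0813 to 0.354. The other subunits of the same complex, RPA2 and RPA3, changed by 0.03 and 0.02 in LN-229, -0.39 and -0.38 in T98G, and -0.45 and -1.09 in U251. The median of the list was -0.17 beside -0.07 for all genes.

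Of 22 more kinetochore and checkpoint genes, limma called 0, and 9 had an unadjusted p under 0.05, all of them lower, where 14.2% of all genes were. The change was below 0 in all 3 lines for 16 of the 22, against 28.1% of all genes, and for 8 after rescaling to the protein-coding sum (all genes 19.5%), and the medians were -0.09, -0.27 and -0.32. Named after their values were seen, TTK, the kinase that starts the spindle checkpoint, changed by -0.20, -0.41 and -0.77, and MAD2L1, which holds CDC20, by -0.13, -0.37 and -0.62. Of 31 more genes of condensin, spindle and cytokinesis, limma called 0 and 8 had an unadjusted p under 0.05, all lower, and 16 were lower in all 3 lines (13 after that rescaling). HMMR, a spindle protein also named after its values were seen, came nearest to the threshold, with changes of -0.10, -0.64 and -0.80 (adjusted p 0.0597 by limma).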

How the data were processed

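Libraries were made from total RNA of the 6 cultures by TruSeq preparation and then sequenced. The authors aligned reads to hg38 with STAR 2.4.1d in Partek Flow (with Bowtie 2 for unaligned reads), assigned them to Ensembl genes by expectation maximization, and deposited CPM with 0.0001 added. The worth of 1 read was taken from the steps between low CPM values, and 76.7 to 80.4% of values were then whole reads (tolerance 0.05 read), too few for a count test. Intervals and floors (3 reads, 0.0289 to 0.0574 CPM) cover counting error only.

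Genes averaging 1 CPM or more were fitted as log2(CPM + 1) with limma 3.58.1 (R 4.3.3), mean-variance trend, Benjamini-Hochberg adjustment, threshold 0.05, and cell line as block, after the study's pairing. Deviations of libraries of the same line correlated at 0.948 to 0.967 and those of different lines at -0.505 to -0.467. They were taken from the mean of the lines within a condition, which by itself makes different lines correlate negatively. The second range is thus no evidence for the pairing. Fold changes on this scale understate those of low genes. The limma fit was also run on data simulated from it, with independent noise and the same change in every line. That run does not bear on changes that differ between lines. Python 3.11.15 was used for other steps, GENCODE v44 (hg38, a later annotation than the authors') for lengths and overlaps, and RefSeq for promoters.

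The rule named all 43 members, the called genes of 4 further lists (at most 5 rises and 5 falls a list) and HOTAIRM1 as the target. Other genes of these lists (partner genes of members and of RPA1, and those nearest the threshold or singled out for their levels) were named after their values were seen. Members and lists were chosen with earlier results of these data known. Alternatives were no block, a paired statistic, median centring, rescaling to all listed genes, a pseudocount of 0.1, no filter, lists without regulators and leaving out each line. Rescaling to protein-coding genes was added after the data were seen.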

Additional observations from a re-analysis of the deposited data

Results flagged for a closer look

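The change on knock-down had opposite signs in a pair of cell lines, beyond the counting error in each as measured, for 15 members, and the signs stayed opposite relative to the all-gene median and after rescaling to the protein-coding sum. Counting error was not set against the rescaled values. The share of all genes that met this rule was not computed, so the 15 cannot be read as a trait of the members. Of all genes, 79.3% were lower in T98G, 46.3% in LN-229 and 53.2% in U251. No line had a replicate, so none of these differences was tested. Against T98G, where the gene was lower, the change was higher in U251 by 0.517 for E2F1, 0.540 for MCM3, 0.520 for CDC6, 0.454 for FOXM1, 0.460 for KIF23 and 0.457 for TPX2. Against T98G, the change was higher in LN-229 by 0.390 for MCM5, 0.637 for TK1, 0.393 for TOP2A, 0.381 for CCNB2, 0.646 for AURKA, 0.545 for BIRC5, 0.613 for CDC20 and 0.536 for UBE2C. Between LN-229 and U251 the change of TYMS differed by 0.364, higher in LN-229. T98G was on the lower side of 14 of the 15, and its protein-coding share of the CPM scale differed most between its 2 libraries (38.7 and 32.3%); the part of this share was not tested beyond the rescaling.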

How the results depend on the processing

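With 3 lines and no replicate within a line, the calls depended on the block and on scaling. The single member called became 0 with no replicate block, with the paired statistic of each gene alone, with median centring, with rescaling to the listed or the protein-coding genes, and without the filter, and leaving out each line gave 0 to 1. For all genes, 286 calls became 0 with no replicate block (29 with an unadjusted p under 0.05), 0 with the paired statistic (896), 0 with protein-coding rescaling (2576), 0 with no filter (2477), 41 with centring (15 higher, 26 lower), 25 with rescaling to the listed genes (10 and 15) and 683 with a pseudocount of 0.1; leaving out a line gave 0 to 270, the 0 without T98G.

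Between lines, T98G against LN-229 had 5, 3, 4 and 0 members higher with centring, listed genes, protein-coding genes and no filter (main 1), and 11 lower with no filter (main 18). U251 against LN-229 had 3 higher with listed genes and with no filter (main 5), and 24, 26, 26 and 9 lower with centring, listed genes, protein-coding genes and no filter (main 15). U251 against T98G had 3 and 7 higher with listed and protein-coding genes (main 15), and 15, 20, 18 and 2 lower with centring, listed genes, protein-coding genes and no filter (main 4). The shares of all genes between lines under these settings are not given here.

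The difference of the S-phase and mitotic medians was 0.013 without the regulators and CCNA2 (main 0.051) and 0.042 to 0.0689 when each line was left out. Both medians and their difference otherwise moved by less than the spread between lines, although the U251 S-phase median turned from -0.07 to 0.0053 with centring and 0.03 with protein-coding genes, and both U251 medians turned to 0.19 and 0.12 with listed genes. The fitted change of 16 members took the other sign with listed genes, of 14 with protein-coding genes, of 8 with centring and of 11 without T98G. The counting intervals of some low members included 0, such as CDT1 (-0.12 to 0.43) and CCNE1 (-0.25 to 0.20) in U251 and CENPA in T98G (-0.22 to 0.15). The causes of these shifts were not tested.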

Other observations

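The levels of 4 cell cycle control genes, named after their values were seen, are given by line. CCND1 (cyclin D1) was at 298.6 and 222.8 CPM in LN-229 (siControl and siHOTAIRM1), 99.3 and 65.1 in T98G, and 45.5 and 60.6 in U251. CDKN1A, the p21 inhibitor of cyclin kinases, was at 18.3 and 15.3 CPM in LN-229, 11.0 and 7.89 in T98G, and 6.51 and 6.03 in U251. CDKN2A was listed at 0.0001 CPM in LN-229 and U251 and at 0.159 and 0.179 in T98G, and its neighbour CDKN2B was listed at 0.0001 in LN-229 and U251 and at 8.04 and 4.28 in T98G. Thus both genes had reads in T98G and were listed at the added constant in the other lines.

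Of the 40 genes of a cell cycle control list, 36 passed the filter (not CCND2, CDKN1C, CDKN2A and CDKN2C), limma called 0 of them on knock-down, and 5 (4 of them lower) had an unadjusted p under 0.05, where 18.3% of all genes had (14.2% lower). CKS2, a small partner of CDK1, came nearest, with changes of -0.07, -0.50 and -1.04 (adjusted p 0.0585 by limma). E2F3, the 1 of these 5 that was higher, changed by 0.20, 0.16 and 0.56.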
